A study of Macaca mulatta with 6 samples.

Results

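The SLC25 genes encode the mitochondrial carrier family, proteins of the mitochondrial inner membrane, with a few in the peroxisomal or the outer mitochondrial membrane. They were followed here in laser-captured serotonin neurons of the dorsal raphe, from female rhesus macaques. Members were all probe sets whose platform annotation gave a single gene symbol starting with SLC25A, which found 58 probe sets of 36 genes among 52766 non-control probe sets. Of these genes 23 had 1 probe set and 13 had 2 or more, up to 5 for SLC25A37.

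The inner membrane is impermeable to most metabolites, so phosphate, ADP and ATP, amino acids, carboxylates and cofactors cross it through carriers of this family. Most of them exchange a substrate in the matrix for another outside, and together they tie oxidative phosphorylation, the redox shuttles and the synthesis of heme, glutamate and nucleotides to the rest of the cell. Neurons draw most of their ATP from mitochondria, which gives the ADP/ATP and phosphate carriers a central place there.

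The 6 arrays came from 6 monkeys, with 2 monkeys given estrogen together with progesterone, 2 given estrogen and 2 given placebo. Crystalline steroid in Silastic capsules lay under the skin near the shoulder blades for 1 month in this series. Placebo titles alone hold the tag Ovx, and the hormone titles name the treatment. Dose, age and ovarian status of the hormone groups are not given in the labels. RNA was isolated with a column microkit, biotin-labelled and read on arrays with 1 intensity per probe set. Exact permutation of 2 monkeys against 2 reaches no p under 0.333, and the differences here come from limma fitted over all probe sets.

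The arrays differed in how far their transcripts stood above background. The floor of an array, the 95th percentile of its 59 probe sets for bacterial and tag sequences, was exceeded by 49.6% and 28.7% of probe sets with estrogen+progesterone, 62.2% and 58.5% with estrogen, and 37.3% and 36.3% with placebo. Estrogen+progesterone 2 and both placebo arrays are called low-signal here and the other 3 high-signal, which was decided with the values in view. Of the serotonin neuron markers 8 were on the array by name, and 4 to 7 of them exceeded the floor per array. FEV, GATA3 and GCH1 exceeded it on all 6 arrays, but TPH2, the neuronal tryptophan hydroxylase, only on the 2 estrogen arrays. All 6 astrocyte markers on the array exceeded it on the high-signal arrays, and both oligodendrocyte markers on all 6 arrays. The 3 dopamine neuron markers on the array also exceeded it on the high-signal arrays, with summed signals of 4345 and 524 with estrogen+progesterone, 11151 and 1753 with estrogen, and 990 and 1362 with placebo. The captured material thus held RNA of genes that mark other cell types, and the part of those cells in the carriers' values was not tested. In such bulk samples fewer cells of a type and less RNA per cell cannot be told apart.

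Members of the family above the floor numbered 37 and 20 of 58 probe sets with estrogen+progesterone, 47 and 42 with estrogen, and 31 and 23 with placebo. On all 3 high-signal arrays 35 probe sets exceeded it, and on all 3 low-signal arrays 9. The signal classes were set by the share of all probe sets above the floor, so a contrast in this direction is built in. The genes whose brightest probe set exceeded the floor on all 6 arrays were 8, namely SLC25A1, SLC25A4, SLC25A5, SLC25A11, SLC25A22, SLC25A25, SLC25A26 and SLC25A36. The brightest probe sets of SLC25A2, SLC25A15 and SLC25A31 exceeded it on no array, and a second SLC25A15 probe set on 1. After a filter at the 50th percentile of the mean signal, 35 probe sets of 25 genes were tested. The 11 genes not tested were SLC25A2, SLC25A10, SLC25A14, SLC25A15, SLC25A24, SLC25A30, SLC25A31, SLC25A34, SLC25A39, SLC25A41 and SLC25A42, each above the floor on at most 2 arrays. A gene can pass such a filter through the group in which it is high, so counts over the tested genes describe those genes and not the whole family. The heat map of all 36 genes shows these levels.

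**Figure D1:**
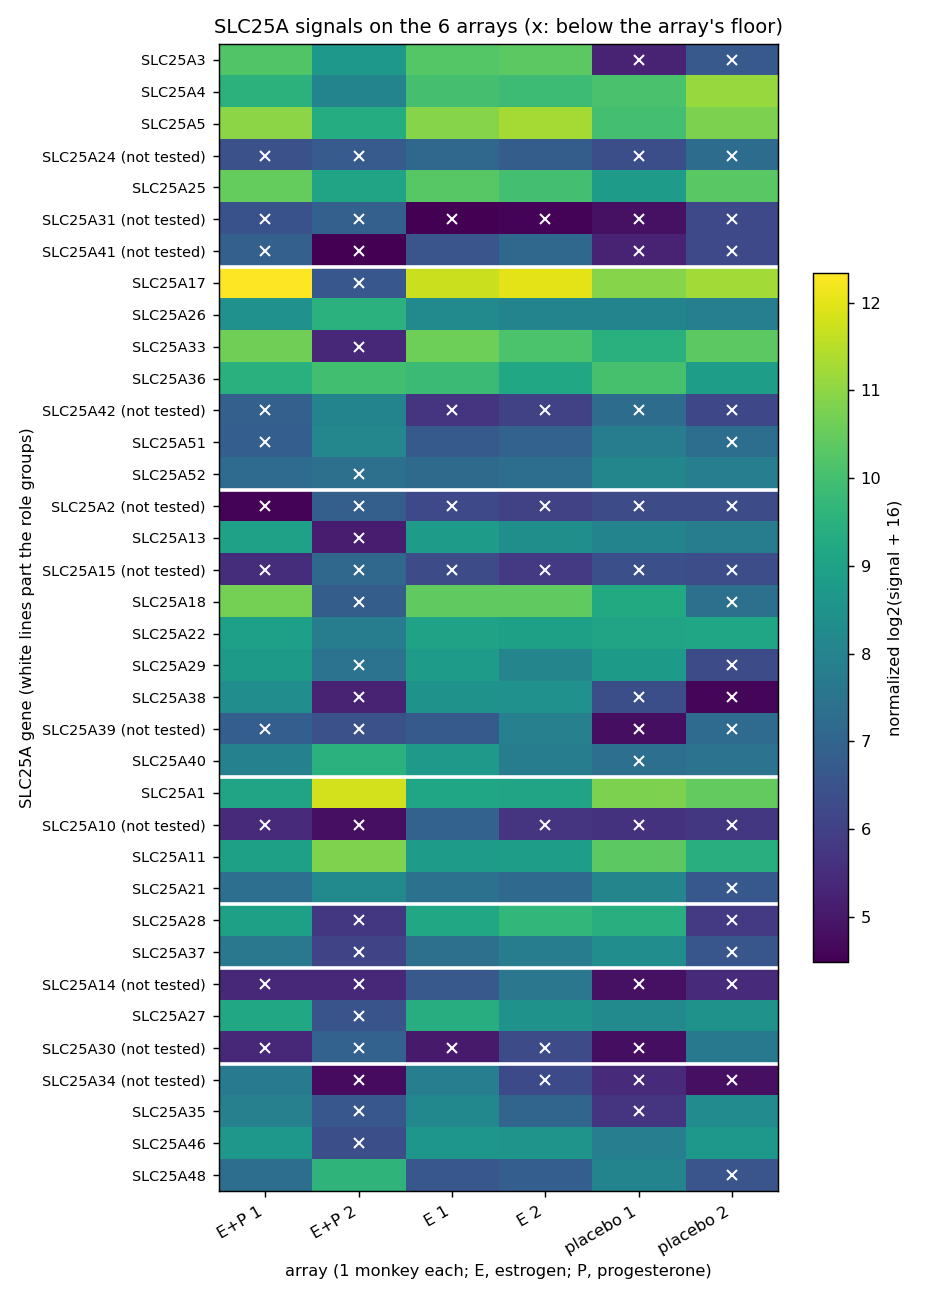
Normalized log2(signal + 16) of the 36 SLC25A genes (rows, grouped by role) on the 6 arrays (columns, 1 monkey each), with a white cross where the deposited signal is below that array's floor. Crosses are more frequent on estrogen+progesterone 2 and the placebo arrays than on estrogen+progesterone 1 and the estrogen arrays, and 8 genes carry none.

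No SLC25A probe set passed an adjusted p of 0.05 in any of the 3 comparisons, nor did any of the 26383 probe sets tested (0%). Adjusted p over the family's tested probe sets was 0.635 to 0.990 for estrogen minus placebo, 0.992 to 0.9997 for estrogen+progesterone minus placebo, and 0.799 to 0.991 for estrogen+progesterone minus estrogen. Unadjusted p under 0.05 was reached over all probe sets by 1211 that were higher and 854 lower with estrogen than with placebo. The same count was 541 higher and 329 lower for estrogen+progesterone against placebo, and 391 higher and 73 lower against estrogen. SLC25A3 and SLC25A38 were the members among them by gene in estrogen minus placebo, 2 of 25 tested genes (8%) against 3.68% of all 9781 tested genes that were higher, with 0 of 25 lower against 1.24%. By probe set 3 of 35 (8.57%) were higher there, against 4.59% of all, with the dimmest probe set of SLC25A17 as the third. Lower were 0 of 35, against 3.24% of all. In estrogen+progesterone minus placebo SLC25A3 alone reached an unadjusted p under 0.05, 1 of 25 (4%) against 1.34% higher and, with 0 of 25, 1.04% lower. No tested SLC25A gene reached it in estrogen+progesterone minus estrogen, against 0.481% of all tested genes higher and 0.225% lower. The comparisons share arrays, so their values for a gene are given side by side and are not independent.

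The phosphate and adenine nucleotide carriers supply ATP synthase with its substrates. SLC25A3, the phosphate carrier, which also carries copper, had signals of 1754 and 387 with estrogen+progesterone, 2020.4 and 1849 with estrogen, and 35.8 and 137 with placebo. All 4 hormone arrays lay above both placebo arrays, and the placebo values lay below their floors. On the log2 scale the difference was 4.32 ± 0.92 for estrogen minus placebo (SE, n = 2 monkeys per group, limma adjusted p = 0.635), the largest of the 25 tested genes. It was 3.45 ± 0.92 for estrogen+progesterone minus placebo (adjusted p = 0.992) and -0.87 ± 0.92 for estrogen+progesterone minus estrogen (adjusted p = 0.802). Set against the placebo floor SLC25A3 was at least 4.03-fold higher with estrogen+progesterone and at least 7.37-fold higher with estrogen, bounds that hold no allowance for the spread between animals. Leaving out any 1 array left the estrogen minus placebo difference between 3.61 and 5.03. With arrays weighted by their quality in limma SLC25A3 was called in that comparison (adjusted p = 0.0280), as 1 of 35 SLC25A probe sets (2.86%) and with 434 of all probe sets (1.64%), whereas its adjusted p in the other alternatives lay between 0.133 and 1. With signal class as a covariate the difference was 2.79. A second SLC25A3 probe set, above the floor on 1 array, had signals of 51.6 and 72.4 with estrogen+progesterone, 45.1 and 43.3 with estrogen, and 129 and 137 with placebo. Its log2 differences from placebo were -0.42 with estrogen+progesterone and -0.07 with estrogen, so it did not show the difference of the brighter probe set.

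SLC25A4 and SLC25A5 are the ADP/ATP translocases 1 and 2, which export ATP from the matrix for ADP; the first is the main form of heart and muscle and is abundant in brain, the second is common in proliferating cells. SLC25A4 had signals of 930 and 308 with estrogen+progesterone, 1609 and 1252 with estrogen, and 768 and 1633 with placebo. Deposited signals with estrogen lay between those with placebo, whereas normalized values were lower, by -0.67 ± 0.90, a direction that turned without normalization (0.34), with median-centering (1.58) and with scaling to hybridization controls (2.71). After normalization SLC25A4 was lower with estrogen+progesterone, by -1.83 ± 0.90 against placebo and -1.16 ± 0.90 against estrogen. Deposited signals with estrogen+progesterone and with placebo overlapped, and the other tested SLC25A4 probe sets gave -0.40 and 0.54 against placebo. For SLC25A5 the signals were 3379 and 484 with estrogen+progesterone, 3451 and 3808 with estrogen, and 728 and 1262 with placebo. Both estrogen arrays and the first of estrogen+progesterone stood above placebo, and the second of estrogen+progesterone below it. SLC25A5 differed by 0.71 ± 0.90 for estrogen minus placebo and by -0.23 ± 0.90 for estrogen+progesterone minus placebo.

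SLC25A25, a calcium-regulated ATP-Mg/phosphate carrier, had signals of 2270.1 and 441 with estrogen+progesterone, 2095 and 1408 with estrogen, and 395 and 927 with placebo. Estrogen arrays stood above the placebo arrays in signal, but normalized groups overlapped, with a difference of 0.58 ± 0.93 for estrogen minus placebo and 0.21 ± 0.93 for estrogen+progesterone minus placebo. SLC25A24 and SLC25A41, further ATP-Mg/phosphate carriers, and SLC25A31, the ADP/ATP translocase known from testis, were not tested. Their signals ran from 50.1 to 202 for SLC25A24, from 12.6 to 91.2 for SLC25A41 and from 1.81 to 170 for SLC25A31. For the 4 tested genes of this group, SLC25A3, SLC25A4, SLC25A5 and SLC25A25, the median log2 difference was -0.01 for estrogen+progesterone minus placebo, 0.64 for estrogen minus placebo and -0.91 for estrogen+progesterone minus estrogen. The last difference was below 0 in all 4 and none passed the test. Of all tested genes only 34% lay above 0 in that comparison, with a median of -0.44.

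**Figure D2:**
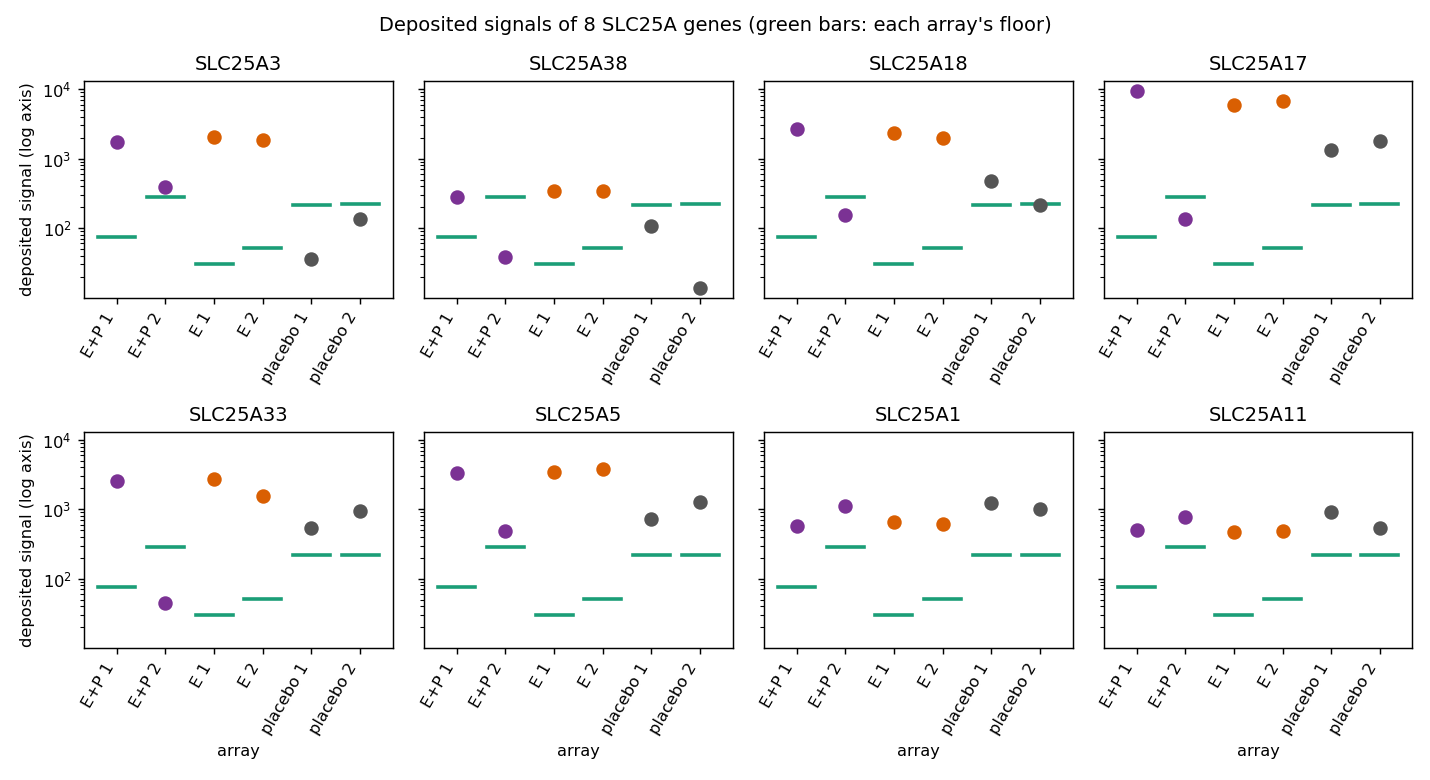
Deposited signal (log axis) of 8 SLC25A genes on the 6 arrays, 1 point per monkey, with green bars at each array's floor. SLC25A3 is above the placebo arrays on all 4 hormone arrays, and in SLC25A17, SLC25A18 and SLC25A33 estrogen+progesterone 1 stands with the estrogen arrays while estrogen+progesterone 2 lies lowest.

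Carriers of other nucleotides and cofactors included the widest splits between 2 monkeys of 1 group among the tested genes. SLC25A17, a carrier of the peroxisomal membrane for coenzyme A, FAD and NAD, had signals of 9448 and 134 with estrogen+progesterone, 5923 and 6656 with estrogen, and 1325 and 1774 with placebo. Estrogen+progesterone 1 was the highest and estrogen+progesterone 2 the lowest of the 6 arrays, and there SLC25A17 was below the floor. SLC25A17 differed by 0.79 ± 1.52 for estrogen minus placebo, -1.60 ± 1.52 for estrogen+progesterone minus placebo and -2.39 ± 1.52 for estrogen+progesterone minus estrogen. SLC25A33, a pyrimidine nucleotide carrier, showed the same split, with signals of 2581 and 44.7 with estrogen+progesterone, 2686 and 1551 with estrogen, and 537 and 947 with placebo. On estrogen+progesterone 2 SLC25A33 was below the floor as well. The differences of SLC25A33 were 0.44 ± 1.44 for estrogen minus placebo and -1.90 ± 1.44 for estrogen+progesterone minus placebo. The related pyrimidine nucleotide carrier SLC25A36 had signals of 885 and 582 with estrogen+progesterone, 1382 and 685 with estrogen, and 746 and 407 with placebo, groups that overlapped, with differences of 0.05 to 0.26 in the 3 comparisons (SE 0.86).

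SLC25A26 imports S-adenosylmethionine, the methyl donor, into the matrix. Its signals were 308 and 509 with estrogen+progesterone, 250 and 216 with estrogen, and 288 and 269 with placebo. Both estrogen+progesterone arrays exceeded the other 4, by 1.02 ± 0.83 against placebo and 0.84 ± 0.83 against estrogen on the log2 scale. The difference from estrogen turned to -0.07 with median-centering and -0.94 with scaling to hybridization controls. SLC25A51, the mitochondrial NAD carrier of human cells, had signals of 70.6 and 320 with estrogen+progesterone, 41.0 and 71.7 with estrogen, and 264 and 208 with placebo, lower by -0.75 ± 0.86 for estrogen minus placebo. SLC25A52, its close relative, had 97.9 and 232 with estrogen+progesterone, 69.0 and 104 with estrogen, and 293 and 265 with placebo, with differences from placebo of -0.65 ± 0.80 for estrogen+progesterone and -0.69 ± 0.80 for estrogen. Both estrogen values lay below both placebo values in each gene. That direction turned for SLC25A51 (0.26) and SLC25A52 (0.63) with scaling to hybridization controls. The floors were 216 and 221 on the placebo arrays and at most 51.6 on the estrogen arrays. SLC25A51 was below the floor on placebo 2, whereas both genes exceeded it on both estrogen arrays. Whether either gene was lower with estrogen relative to background was not tested. SLC25A42, a carrier of coenzyme A, was not tested and ran from 15.7 to 307. Over the 6 tested genes of the group the median was -0.37 for estrogen+progesterone minus placebo, 0.12 for estrogen minus placebo and 0.12 for estrogen+progesterone minus estrogen.

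Among the amino acid and glutathione carriers, SLC25A38 carries glycine into mitochondria for heme synthesis. It had signals of 276 and 38.5 with estrogen+progesterone, 339 and 341 with estrogen, and 108 and 13.9 with placebo. The estrogen arrays and estrogen+progesterone 1 were high, and SLC25A38 was below the floor on the other 3. The difference was 2.98 ± 1.13 for estrogen minus placebo (adjusted p = 0.635), at least 2.09-fold against the placebo floor, and 1.28 ± 1.13 for estrogen+progesterone minus placebo. Signal class as a covariate left -0.12 for the estrogen minus placebo difference of SLC25A38, so the direction turned.

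SLC25A18 and SLC25A22 are the mitochondrial glutamate carriers, of which SLC25A18 is the form known from astrocytes. SLC25A18 had signals of 2708 and 157 with estrogen+progesterone, 2326 and 1987 with estrogen, and 484 and 214 with placebo. It was high on the 3 high-signal arrays, and below the floor on placebo 2 and estrogen+progesterone 2. The log2 difference was 2.11 ± 1.26 for estrogen minus placebo (adjusted p = 0.675), 0.42 ± 1.26 for estrogen+progesterone minus placebo and -1.69 ± 1.26 for estrogen+progesterone minus estrogen. The summed signal of the 6 astrocyte markers on the array moved with it, at 58885 and 2965 with estrogen+progesterone, 52069 and 62627 with estrogen, and 17084 and 16054 with placebo. That was not particular to astrocyte markers, since the summed signal of the 5 general neuron markers was also higher on the high-signal arrays. Of all tested genes 23.7% were higher on all 3 high-signal arrays than on all 3 low-signal arrays. The astrocyte marker ALDH1L1 did not follow, with signals of 153 and 102, 57.2 and 357, and 50.2 and 243 in the same order of groups. The astrocyte markers exceeded the floor as 6 and 4, 6 and 6, and 5 and 5 of 6 in that order, and their part in the SLC25A18 result was not tested. With signal class as a covariate the estrogen minus placebo difference of SLC25A18 was -1.78. SLC25A22 had signals of 503 and 284 with estrogen+progesterone, 595 and 540 with estrogen, and 446 and 459 with placebo. In signal both estrogen arrays were higher than placebo, and after normalization lower, by -0.14 ± 0.83, so that its direction depends on the scaling (0.31 without normalization).

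SLC25A13, the aspartate/glutamate carrier citrin of the malate-aspartate shuttle, had signals of 523 and 34.2 with estrogen+progesterone, 484 and 321 with estrogen, and 287 and 260.1 with placebo. Estrogen exceeded placebo by 0.70 ± 1.18, and estrogen+progesterone 2 alone was below its floor. SLC25A40, a carrier needed for mitochondrial glutathione, had signals of 185 and 508 with estrogen+progesterone, 443 and 169 with estrogen, and 212 and 226 with placebo. Deposited signals overlapped between the groups, while normalized values were higher by 1.30 ± 0.90 with estrogen+progesterone and 0.84 ± 0.90 with estrogen than with placebo. SLC25A29, a carrier of basic amino acids, ran from 97.9 to 495 with groups that overlapped, and its differences from placebo were 0.59 ± 1.03 with estrogen+progesterone and 0.91 ± 1.03 with estrogen. The ornithine carriers SLC25A2 and SLC25A15 and SLC25A39, the close relative of SLC25A40, were not tested. For the 6 tested genes of this group the median was 0.51 for estrogen+progesterone minus placebo, 0.88 for estrogen minus placebo and -1.08 for estrogen+progesterone minus estrogen.

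Of the carboxylate carriers, SLC25A1 exports citrate, a source of cytosolic acetyl-CoA. It had signals of 575 and 1121 with estrogen+progesterone, 664 and 618 with estrogen, and 1214 and 1002 with placebo. The 3 high-signal arrays lay below the 3 low-signal arrays, the reverse of SLC25A3 and SLC25A18. SLC25A1 differed by -1.53 ± 1.01 for estrogen minus placebo (adjusted p = 0.696), the lowest of the 25 tested genes, and by 1.33 ± 1.01 for estrogen+progesterone minus estrogen. SLC25A11, the 2-oxoglutarate/malate carrier of the malate-aspartate shuttle, had 509 and 764 with estrogen+progesterone, 468 and 493 with estrogen, and 901 and 529 with placebo. Its difference was -1.08 ± 0.93 for estrogen minus placebo and 1.07 ± 0.93 for estrogen+progesterone minus estrogen. Neither direction held under all scalings, with estrogen minus placebo at 0.48 for SLC25A1 and 0.74 for SLC25A11 with median-centering, and at 1.59 and 1.83 with scaling to hybridization controls. SLC25A21, a carrier of oxodicarboxylates, had signals of 108 and 331 with estrogen+progesterone, 89.0 and 88.7 with estrogen, and 289 and 134 with placebo. Normalized groups of SLC25A21 overlapped, at -0.07 ± 0.88 for estrogen minus placebo. The dicarboxylate carrier SLC25A10 was not tested and had no signal over 58.1. The median of the 3 tested genes was -0.00 for estrogen+progesterone minus placebo, -1.08 for estrogen minus placebo and 1.07 for estrogen+progesterone minus estrogen.

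The iron carriers are SLC25A37 and SLC25A28, mitoferrin 1 and 2, which bring iron in for heme and iron-sulfur clusters. SLC25A28 had signals of 516 and 59.9 with estrogen+progesterone, 717 and 1082 with estrogen, and 529 and 61.0 with placebo. Both estrogen+progesterone arrays lay below both estrogen arrays, by -2.09 ± 1.35. In the estrogen+progesterone and the placebo group alike 1 of 2 arrays was low, and the signal there was below the floor. SLC25A28 differed by 1.82 ± 1.35 for estrogen minus placebo, with overlap after normalization, and by 0.01 without placebo 2 and 3.62 without placebo 1. SLC25A37 had signals of 139 and 81.6 with estrogen+progesterone, 86.4 and 168 with estrogen, and 324 and 127 with placebo, and no group stood apart from another (0.12 ± 0.96 for estrogen minus placebo). Its other 4 probe sets were not tested.

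The remaining members are relatives of the uncoupling proteins and carriers with other or less certain roles. SLC25A27, also called UCP4 and known from brain, had signals of 640 and 124 with estrogen+progesterone, 879 and 348 with estrogen, and 311 and 348 with placebo. The groups overlapped after normalization, with 0.56 ± 1.01 for estrogen minus placebo and -0.53 ± 1.01 for estrogen+progesterone minus placebo. SLC25A14, also called UCP5, was not tested, with signals of 16.8 and 43.0 with estrogen+progesterone, 40.1 and 139 with estrogen, and 20.1 and 41.8 with placebo. SLC25A46, an outer membrane protein that takes part in mitochondrial shape, had 389 and 106 with estrogen+progesterone, 393 and 366 with estrogen, and 266 and 371 with placebo. Its values overlapped except that estrogen+progesterone 2 was lowest, and the differences were 0.33 ± 0.97 for estrogen minus placebo and -0.73 ± 0.97 for estrogen+progesterone minus placebo. SLC25A48 had signals of 106 and 523 with estrogen+progesterone, 37.0 and 65.8 with estrogen, and 288 and 123 with placebo. Both estrogen+progesterone arrays exceeded both estrogen arrays, by 1.73 (limma adjusted p at or above 0.799), the highest of the 25 tested genes in that comparison. SLC25A35 ran from 56.4 to 314 with overlapping groups, and SLC25A30 and SLC25A34 were not tested.

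Across the 25 tested genes, estrogen and placebo did not overlap on normalized values in 7 that were higher with estrogen (28%), against 30.6% of all tested genes. These were SLC25A3, SLC25A5, SLC25A13, SLC25A17, SLC25A18, SLC25A38 and SLC25A40. In 6 genes estrogen was lower without overlap (24%), against 19.8% of all, namely SLC25A1, SLC25A4, SLC25A11, SLC25A22, SLC25A51 and SLC25A52. The log2 difference was above 0 in 17 of 25 (68%), against 60.6% of all genes, and its median was 0.44, against 0.28 over all genes. These shares lie near those of all tested genes. Quantile normalization had itself moved the median difference of all tested probe sets from -0.14 to 0.17.

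For estrogen+progesterone minus placebo, 3 genes were higher without overlap (12%, against 11.7% of all tested genes), SLC25A3, SLC25A26 and SLC25A40. Another 3 were lower (12%, against 12.7%), SLC25A4, SLC25A22 and SLC25A52. The median was -0.09, against -0.10 over all genes, and 11 of 25 genes lay above 0 (44%, against 46.2%). For estrogen+progesterone minus estrogen, SLC25A11, SLC25A26 and SLC25A48 were higher without overlap (12%, against 13.5%). The 5 genes SLC25A3, SLC25A4, SLC25A22, SLC25A28 and SLC25A38 were lower without overlap (20%, against 17.9%). The median of this comparison was -0.60, against -0.44 over all genes, with 9 of 25 above 0 (36%, against 34%). In each comparison the family's counts stood near the background of all tested genes.

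**Figure D3:**
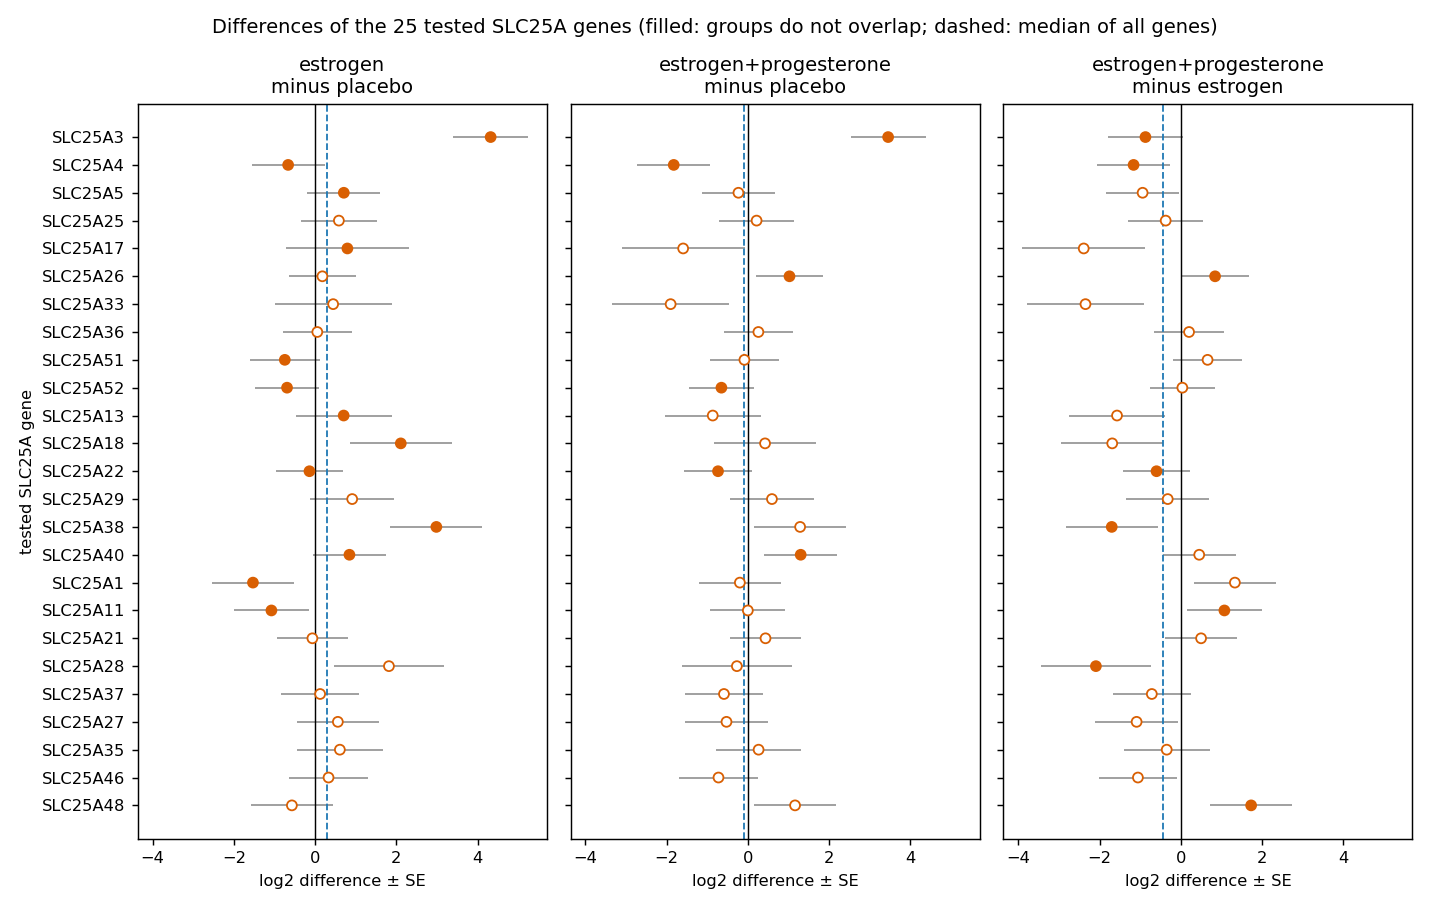
Log2 difference ± SE (limma) of the 25 tested SLC25A genes in the 3 comparisons; filled points mark groups of 2 monkeys that do not overlap on normalized values and dashed lines the median of all tested genes. SLC25A3 lies farthest right for estrogen minus placebo (4.32) and for estrogen+progesterone minus placebo (3.45), and most bars reach or cross 0.

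The high-signal arrays hold both estrogen monkeys and the low-signal arrays both placebo monkeys, so in that comparison the treatment cannot be told apart from the signal of the arrays. All 3 high-signal arrays exceeded all 3 low-signal arrays in 6 of 25 genes (24%, against 23.7% of all tested genes), SLC25A3, SLC25A5, SLC25A13, SLC25A17, SLC25A18 and SLC25A38. They lay below them in 4 (16%, against 10.7%), SLC25A1, SLC25A11, SLC25A51 and SLC25A52. Signal class as a covariate, which takes the class difference from the estrogen+progesterone pair, turned the sign of the estrogen minus placebo difference in 18 of the 25 tested genes. Among them were SLC25A1, SLC25A5, SLC25A11, SLC25A13, SLC25A17, SLC25A18, SLC25A38 and SLC25A51, whose groups did not overlap. The other genes without overlap, SLC25A3, SLC25A4, SLC25A22, SLC25A40 and SLC25A52, kept their sign. Only estrogen+progesterone has an array of each class, and its monkeys differed widely. The median SD between the 2 monkeys over the tested genes was 1.11 with estrogen+progesterone, 0.17 with estrogen and 0.66 with placebo, on the log2 scale.

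Estrogen+progesterone 1 lay within 0.5 log2 units of the estrogen mean in 24 of 25 genes (78.8% of all tested genes), SLC25A48 at 0.59 being the exception, and more than 1 unit away in 0 of 25 (4.48% of all). Estrogen+progesterone 2 lay within that distance in 2 of 25 (16.8% of all genes) and more than 1 unit away in 20 (66.7% of all genes). Its largest gaps below the estrogen mean were -5.25 for SLC25A17, -4.96 for SLC25A33, -3.69 for SLC25A28, -3.63 for SLC25A18 and -3.49 for SLC25A13. Each of these genes lay below the floor on that array, so the size of these gaps is not measured. Above the estrogen mean estrogen+progesterone 2 stood by 2.87 for SLC25A48, 2.70 for SLC25A1 and 2.02 for SLC25A11. For these genes the first monkey was at 0.47, 0.27, -0.49, 0.26 and 0.35, and at 0.59, -0.04 and 0.13. SLC25A3 exceeded the placebo mean in both monkeys, by 4.21 in the first and 2.69 in the second. Across the 35 tested family probe sets, estrogen+progesterone 1 correlated with the estrogen arrays at r of 0.96 and 0.94, with estrogen+progesterone 2 at -0.11, and the placebo arrays with each other at 0.51. Over all 26383 tested probe sets r was 0.91 and 0.84, 0.0005, and 0.52 in the same order, so the split was not particular to the family. These values describe arrays of 1 monkey each that differ in signal. The summed deposited signal of the 5 general neuron markers on the array split likewise, at 21936 and 1760 with estrogen+progesterone, 25432 and 27459 with estrogen, and 5631 and 10838 with placebo. On normalized values the median difference of these markers was -1.81 for estrogen+progesterone minus estrogen, against -0.44 over all genes. For estrogen minus placebo it was -0.01, against 0.28 over all genes. The 8 serotonin neuron markers did not follow this split. Their summed signal was 1648 and 2375 with estrogen+progesterone, 1774 and 1063 with estrogen, and 2158 and 1996 with placebo, sums that include signals below the floor. The median difference of the 5 tested ones was 0.12 for estrogen+progesterone minus estrogen and -0.34 for estrogen minus placebo. The part of either marker list in the split of the carriers was not tested.

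**Figure D4:**
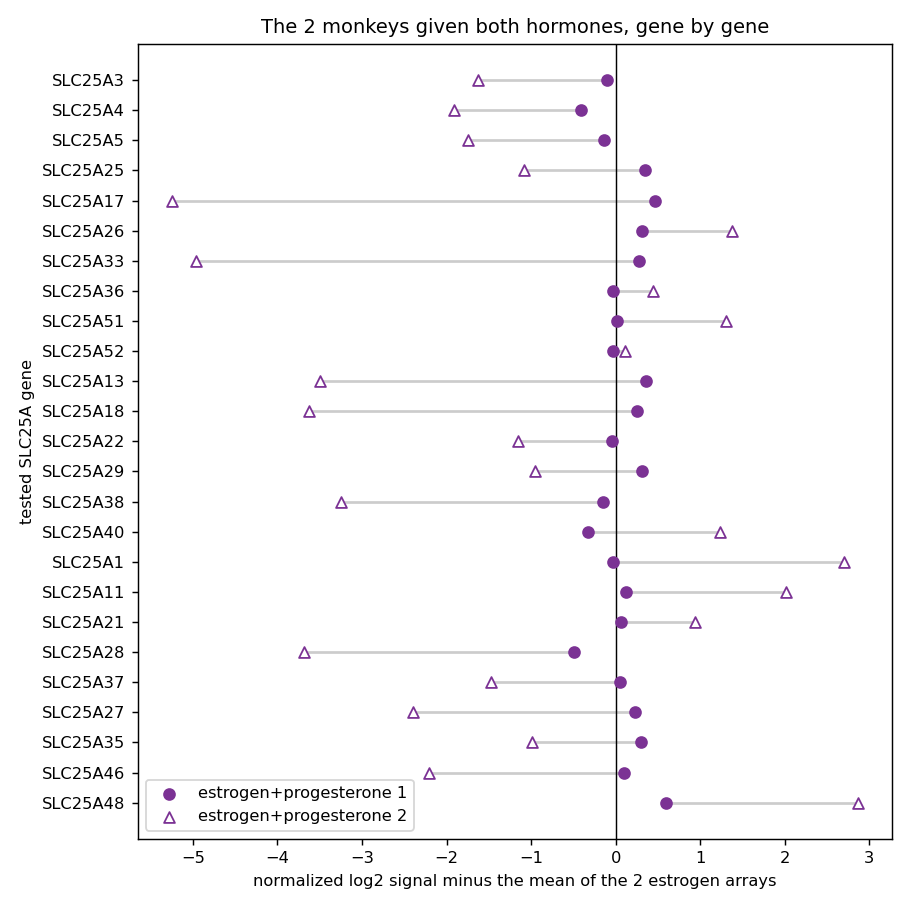
Normalized log2 signal of the 25 tested SLC25A genes in estrogen+progesterone 1 (circles) and estrogen+progesterone 2 (triangles), each minus the mean of the 2 estrogen arrays. Circles lie between -0.49 and 0.59, and triangles between -5.25 and 2.87. The lowest triangles belong to genes below the floor on estrogen+progesterone 2.

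Because of this split the estrogen+progesterone values rest on which monkey is kept. Without estrogen+progesterone 1, where the lone array is assumed to vary like the other groups, 4200 of all probe sets (15.9%) passed in estrogen+progesterone minus estrogen, and 5 of 35 SLC25A probe sets (14.3%), a share near that of all probe sets. These were SLC25A1 at 2.70, SLC25A13 at -3.49, SLC25A17 at -5.25, SLC25A18 at -3.63 and SLC25A33 at -4.96. All but SLC25A1 lay below the floor on estrogen+progesterone 2, the array kept. In the other alternatives the adjusted p of these 5 genes ran from 0.343 to 1. The family median was then -1.16, against -0.88 over all genes, and without estrogen+progesterone 2 it was 0.06, against 0.05. For estrogen+progesterone minus placebo it was -0.50 without the first monkey and 0.52 without the second.

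Of the 13 genes with several probe sets, 7 had 2 or more that were tested. Tested probe sets of 1 gene gave estrogen minus placebo differences of both signs in 4 of these, SLC25A4, SLC25A11, SLC25A13 and SLC25A17. The dimmest SLC25A4 probe set had signals of 867 and 14.0 with estrogen+progesterone, 662 and 1600 with estrogen, and 19.3 and 296 with placebo, a difference of 3.17 ± 1.57 for estrogen minus placebo (limma adjusted p = 0.648), where its brightest gave -0.67. SLC25A17's second probe set had 190 and 887 with estrogen+progesterone, 206 and 278 with estrogen, and 629 and 174 with placebo, and was highest where the brightest was lowest. Its dimmest had 434 and 33.7 with estrogen+progesterone, 126 and 580 with estrogen, and 12.4 and 61.2 with placebo, below the floor on the low-signal arrays. For estrogen minus placebo the dimmest gave 3.15 ± 1.22 (limma adjusted p = 0.635), the second -0.21 and the brightest 0.79. The second SLC25A11 probe set had 386 and 374 with estrogen+progesterone, 535 and 556 with estrogen, and 388 and 278 with placebo. It was higher with estrogen by 0.58, against -1.08 for the brightest. SLC25A25 and SLC25A27 gave estrogen minus placebo differences above 0 with each tested probe set. In estrogen+progesterone minus placebo the tested probe sets differed in sign in 6 of the 7 genes, and in estrogen+progesterone minus estrogen in 3. Which transcripts or relatives each probe set matches was not tested.

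**Figure D5:**
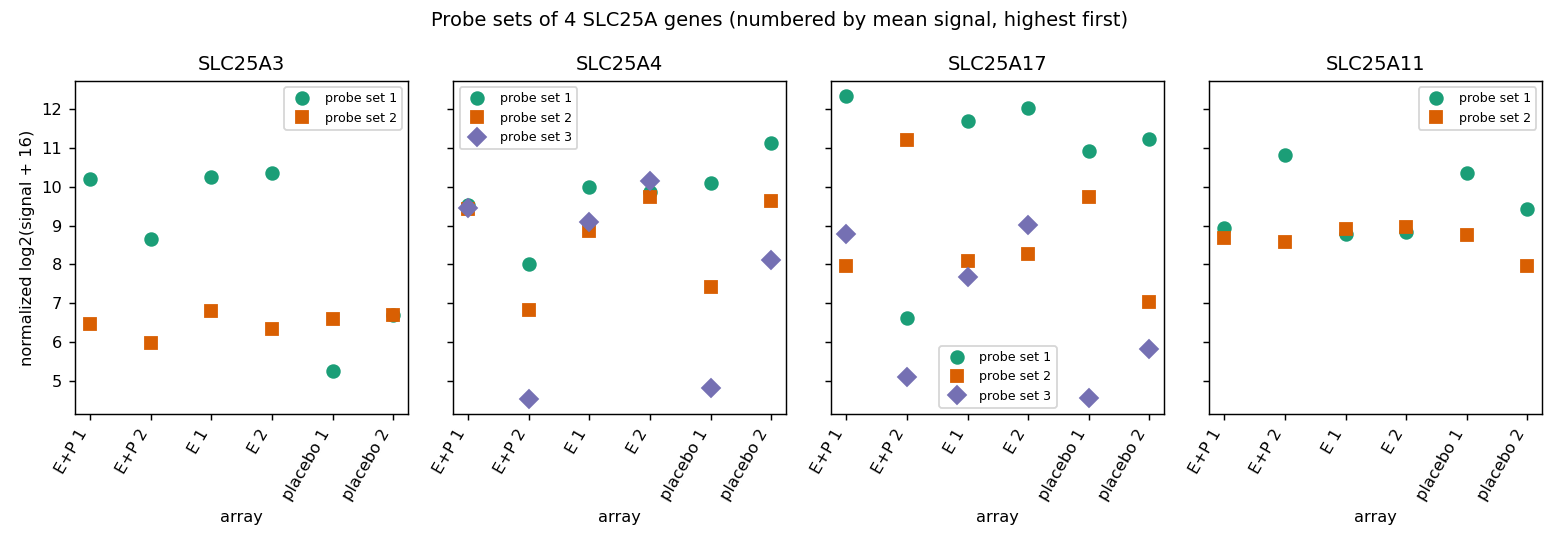
Normalized log2(signal + 16) of every probe set of SLC25A3, SLC25A4, SLC25A17 and SLC25A11 on the 6 arrays, numbered by mean signal. The second SLC25A3 probe set stays level where the first is 4.32 higher with estrogen than with placebo, and its marker hides that of the first on placebo 2.

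Genes that work beside the carriers were read from 7 lists with 57 genes on the array, of which 52 were tested and none passed in any comparison. Of all tested genes 46.2% lay above 0 for estrogen+progesterone minus placebo, 60.6% for estrogen minus placebo and 34% for estrogen+progesterone minus estrogen, and the counts here are read beside those shares. ATP synthase subunits, the users of the phosphate and ADP that SLC25A3 and the translocases bring in, had a median of -0.95 for estrogen+progesterone minus placebo (3 of 12 above 0), 0.80 for estrogen minus placebo (10 of 12) and -1.56 for estrogen+progesterone minus estrogen (2 of 12). ATP5F1B, the catalytic beta subunit, had signals of 1504 and 322 with estrogen+progesterone, 1515 and 4759 with estrogen, and 54.8 and 215 with placebo, below the floor on both placebo arrays. All 4 hormone arrays exceeded both placebo arrays, and against the placebo floor ATP5F1B was at least 3.19-fold higher with estrogen+progesterone and at least 10.04-fold higher with estrogen (log2 differences of 2.55 ± 1.04 and 4.21 ± 1.04). ATP5F1D, the delta subunit, was at -1.66 ± 0.90 in the same comparison.

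All 3 tested malate-aspartate shuttle enzymes lay above 0 for estrogen minus placebo, with a median of 1.66. Of the carriers of that shuttle SLC25A13 was at 0.70 and SLC25A11 at -1.08 through their brightest probe sets, and at -0.09 and 0.58 through the other tested one. The cytosolic enzymes GOT1, an aspartate transaminase, and MDH1, a malate dehydrogenase, were at 2.69 ± 1.06 and 1.66 ± 1.19, and the mitochondrial MDH2 at 0.42. GOT1 had signals of 583 and 248 with estrogen+progesterone, 674 and 1624 with estrogen, and 56.6 and 306 with placebo. It was below the floor on placebo 1 and estrogen+progesterone 2. The shuttle enzymes were below 0 in 3 of 3 for estrogen+progesterone minus estrogen, with a median of -1.36.

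VDAC3, a channel of the outer membrane, had signals of 469 and 260.3 with estrogen+progesterone, 745 and 1932 with estrogen, and 94.7 and 289 with placebo. It was below the floor on placebo 1 and estrogen+progesterone 2, and differed by 2.67 ± 0.97 for estrogen minus placebo. Outer membrane channels and import genes lay above 0 in 7 of 9 there, with a median of 0.45, and inner membrane import genes in 9 of 14, with a median of 0.31. TIMM10, a chaperone that guides carrier proteins through the space between the membranes, had 1576 and 6165 with estrogen+progesterone, 1388 and 1420 with estrogen, and 3315 and 2628 with placebo, at -1.96 ± 1.12 for estrogen minus placebo. Like SLC25A1 it was lower on each of the 3 high-signal arrays than on the 3 low-signal arrays. Other inner membrane transport genes were above 0 in 7 of 8. SMDT1, a subunit of the calcium uniporter, had signals of 2075 and 16.5 with estrogen+progesterone, 1827 and 1579 with estrogen, and 212 and 61.2 with placebo. On the placebo arrays it did not reach the floor, and it was at least 6.63-fold higher with estrogen than that floor (log2 difference of 3.56 ± 1.56). The carnitine shuttle enzymes were above 0 in 4 of 4, with CPT1A, carnitine palmitoyltransferase, at 1.16. CRAT, carnitine acetyltransferase, did not reach the floor with placebo and was at least 1.77-fold higher with estrogen. Of the family members under other symbols UCP2 was at -0.72 ± 0.80 and MTCH1 at 0.04 ± 1.15 after normalization. Deposited signals of UCP2 were 2389 and 620 with estrogen+progesterone, 2673 and 1720 with estrogen, and 1536 and 1656 with placebo. Those of MTCH1 were 5027 and 271, 5203 and 3853, and 1752 and 1965 in the same order. In signal both genes were thus higher on the estrogen than on the placebo arrays, so the reading depends on the scaling. All the differences named for these genes had an adjusted p of 0.635 or more in limma, and the median of all tested genes for estrogen minus placebo was 0.28.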

How the data were processed

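Arrays of 6 monkeys, 1 each, were grouped by the treatment in the sample titles. The deposited values are linear intensities, 1 for every probe set on every array. With the outer 2% trimmed at both ends, their mean was about 200 on all arrays. A given signal therefore need not mean the same level on different arrays. The software that made the intensities is not given in the sources used here. Genes were named through the platform annotation (24956 probe sets with 1 symbol, 361 with several, 27449 with none) and symbols checked against the RefSeq gene table of assembly T2T-MMU8v2.0. Family genes with no probe set of a single symbol, such as SLC25A6 and SLC25A12, are not analysed here, and no positions are given.

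Values were taken to log2(intensity + 16), so that differences of low signals are understated, and quantile normalized without the 99 controls. Those whose mean reached the 50th percentile were tested. R 4.3.3 with limma 3.58.1 fitted 3 group means to the 6 arrays (3 residual degrees of freedom, two-sided, Benjamini-Hochberg over the 26383 tested probe sets, threshold 0.05). The script was tested on simulated data for estrogen minus placebo, with 50 probe sets at each difference of 3, 6, -3 and -6 log2 units. With the simulated spread unscaled it called 0 of 50 in each case, and with that spread scaled by 0.25 it called 44 to 50. A fit that calls no probe set therefore does not show that differences of that size are absent. Each gene stands as its brightest tested probe set, or its brightest of all where none was tested. Levels of different genes are not compared, since probe sets differ in response. Members, lists and settings were chosen with earlier results of these data known. Named were all SLC25A genes, with every array's value for 11 carriers of central metabolism or known from brain where measured, for up to 4 genes per direction and comparison without overlap, and for genes any fit called; other genes are given the same way where a role group called for it. From each other list came up to 3 members with the smallest unadjusted p for estrogen minus placebo. Alternatives were other offsets, filters, normalizations and priors, array weights, each array left out, a replicate block, 2 groups alone and signal class as a covariate; scaling to the 27 hybridization controls was added after seeing the data. The number of arrays and the spread between them limit the precision: standard errors of the tested family genes ran from 0.80 to 1.52.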

Additional observations from a re-analysis of the deposited data

How the results depend on the processing

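Of 1401 differences recomputed for SLC25A genes over 19 alternatives, 1242 kept their sign and were not called, whatever their size. Of the rest 127 moved, 6 passed the threshold newly and 26 reversed. Other probe sets gave 60 more, of which 32 kept their sign, 19 moved and 9 reversed. Moved here means a change of sign where the groups overlapped, and reversed a change of sign where they did not. With all tested genes counted the sign changed in 153 of the 1401 and 28 of the 60. The family median for estrogen minus placebo (0.44) was 1.57 with median-centering, -0.68 with signal class as a covariate and 2.68 with scaling to hybridization controls, against 1.54, -0.50 and 2.59 over all genes. It ran from 0.092 to 0.52 with each array left out. For estrogen+progesterone minus estrogen (-0.60) it was -1.30, 0.058 and -2.18 under the same settings, and -1.16 to 0.058 with each array left out. For estrogen+progesterone minus placebo (-0.09) it was -0.50 to 0.52. Scaling to hybridization controls moved the median of all genes to 0.55 for estrogen+progesterone minus placebo and -1.98 for estrogen+progesterone minus estrogen. With array weights 434 probe sets were called for estrogen minus placebo, 288 higher and 146 lower, 1 of them SLC25A3. With 1 array left out 0 to 4200 probe sets and 0 to 5 SLC25A probe sets were called for estrogen+progesterone minus estrogen, and 0 in the other comparisons; the 4200, 1470 higher and 2730 lower, came without estrogen+progesterone 1. The cause was not tested.

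For estrogen minus placebo the sign changed in 5 of 25 genes without normalization, 5 with median-centering, 18 with signal class and 8 with scaling to hybridization controls. Among genes whose groups did not overlap it reversed as follows. Without normalization it was 0.31 for SLC25A22 and 0.34 for SLC25A4. With median-centering it was 0.48 for SLC25A1, 0.74 for SLC25A11, 1.56 for SLC25A22 and 1.58 for SLC25A4. With signal class it was 1.20 for SLC25A1, 0.81 for SLC25A11, -3.15 for SLC25A13, -4.92 for SLC25A17, -1.78 for SLC25A18, -0.12 for SLC25A38, -0.91 for SLC25A5 and 0.54 for SLC25A51. With scaling to hybridization controls it was 1.59 for SLC25A1, 1.83 for SLC25A11, 2.64 for SLC25A22, 2.71 for SLC25A4, 0.26 for SLC25A51 and 0.63 for SLC25A52. Other probe sets gave 0.58 for SLC25A11, -0.094 for SLC25A13, -0.21 for SLC25A17, -0.073 for SLC25A3, and 0.79 and 3.17 for SLC25A4. Estrogen+progesterone minus placebo reversed for SLC25A22 (0.20 with median-centering, 0.41 with hybridization scaling) and through other probe sets for SLC25A3 (-0.42) and SLC25A4 (0.54). Estrogen+progesterone minus estrogen reversed for SLC25A11 (-0.44, -1.34, and -0.31 with its other probe set) and SLC25A26 (-0.069, -0.94), in the same order of settings.

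Replicate numbers name separate monkeys and do not pair them. With the replicate number as a block 0 probe sets were called in each comparison, and unadjusted p under 0.05 was reached by 2072, 808 and 765 probe sets for estrogen minus placebo, estrogen+progesterone minus placebo and estrogen+progesterone minus estrogen. Signals below an array's floor, which held most of the untested genes, have only a bound, and the floor was higher on the low-signal arrays.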
